A study of Mus musculus with 24 samples.

Results

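The collagens, laminins, tissue inhibitors of metalloproteinases (Timp), matrix metalloproteinases (Mmp) and Adamts proteases of the mouse retina were followed through hypoxia and reoxygenation. The members were chosen by gene symbol alone, as all probe sets that the array annotation assigns to a single gene of these families. No measured signal entered this rule, but earlier results of these data were known when the families were chosen. They are 171 of 45037 probe sets (sets of short oligonucleotides read out as 1 value per transcript) and 89 of 18193 genes, with 82 probe sets for 42 collagen genes, 19 for 10 laminin genes, 13 for the 4 Timp genes, 29 for 18 Mmp genes and 28 for 15 Adamts genes. In the study, adult BALB/c mice breathed air with 6% O2 for 6 h and were killed 0, 2, 4 or 16 h after their return to room air in darkness, and each hypoxic group had its own normoxic group for that hour. All mice, hypoxic and normoxic, carried the light-sensitive leucine variant of Rpe65 in homozygous form, and their exact age and sex are not given in the sources used here. Each of the 8 groups was represented by 3 Affymetrix arrays, with RNA of 3 retinas of 3 different mice pooled on each array, so that pools are what every test compares. The question addressed is how the transcripts that build and remodel the extracellular matrix differ between hypoxic and normoxic retinas at each time of reoxygenation.

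The signals are log2 values that the authors computed with RMA, and the array medians lay between 5.80 and 5.84. Arrays give no read depth, and the number of arrays limits the precision. The test at a given hour took in the probe sets whose hypoxic or normoxic mean was at or above a log2 signal of 6.69, the minimum between the density peaks of all values at 3.81 and 7.90. Changes are hypoxia minus normoxia on the log2 scale with the standard error (SE) of a linear model over all 24 arrays (limma), and those called changed had an adjusted p below 0.05. Where the mean of either treatment lay below 6.69, the change compares dim signals and cannot be read as an exact transcript ratio. All 14 rod photoreceptor markers on the array reached the threshold, as did markers of other eye tissue. The mean log2 signal of 17 lens markers (crystallins and other lens fibre genes) lay between 10.16 and 12.56 on 23 arrays and at 7.60 on the normoxic 0 h replicate 2. All 14 rod markers were tested at 0 h, where 4 were lower in hypoxic retinas (Gngt1, Pde6g, Rcvrn and Rp1) and 0 higher, and their mean was 13.02 to 13.09 in hypoxic and 13.19 to 13.21 in normoxic pools. The mean of 19 markers of the retinal pigment epithelium (RPE), the cell layer behind the photoreceptors, was 7.86 to 8.05 in the hypoxic pools at 0 h and 6.67 to 6.80 in the normoxic pools at 0 h. The mean of 14 fibroblast markers (sclera and choroid) was 6.49 to 6.78 in the hypoxic pools at 0 h and 6.04 to 6.33 in the normoxic pools at 0 h, and their part in the results below was not tested. In whole retinas, fewer cells of a type and less RNA per cell cannot be told apart.

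Collagen IV and laminin chains assemble the sheet-like networks of basement membranes, which in the eye underlie the vessels, the inner limiting membrane and the RPE (Bruch's membrane) and form the lens capsule. Fibril-forming collagens give tensile strength, and FACIT collagens decorate fibrils. Mmps cut matrix proteins, Adamts proteases cut proteoglycans or trim procollagens, and Timps bind and block both classes of protease to different degrees. Timp3 is the member of its family that is held in the matrix and is a known component of Bruch's membrane, and mutations of it cause Sorsby fundus dystrophy in humans. HIF-1, the transcription factor activated in low oxygen, binds a core of ACGTG or GCGTG.

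Promoters of 6 genes with large separations between hypoxic and normoxic pools are shown to give the sequence context of the values below, and of these Adamts9 lay below the signal threshold. They are RefSeq promoters of mouse build GRCm38.p6, each 300 bases long with 250 bases before and 50 after the annotated start, 5′ to 3′ on the strand of the gene. Of the 89 genes, 61 had a promoter there, 68 promoters in all. Capitals mark ACGTG or GCGTG on either strand. ACGTG is also the larger part of the E-box CACGTG, so a match is a description of letters and not a site.
Timp3 (chr10:86300162-86300461, plus strand): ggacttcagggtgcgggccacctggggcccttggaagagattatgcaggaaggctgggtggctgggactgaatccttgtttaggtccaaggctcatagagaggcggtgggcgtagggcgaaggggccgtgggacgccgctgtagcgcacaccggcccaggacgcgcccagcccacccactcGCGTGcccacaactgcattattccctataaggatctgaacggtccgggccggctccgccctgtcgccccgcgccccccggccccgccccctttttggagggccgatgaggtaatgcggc
Col4a1 (chr8:11312777-11313076, minus strand): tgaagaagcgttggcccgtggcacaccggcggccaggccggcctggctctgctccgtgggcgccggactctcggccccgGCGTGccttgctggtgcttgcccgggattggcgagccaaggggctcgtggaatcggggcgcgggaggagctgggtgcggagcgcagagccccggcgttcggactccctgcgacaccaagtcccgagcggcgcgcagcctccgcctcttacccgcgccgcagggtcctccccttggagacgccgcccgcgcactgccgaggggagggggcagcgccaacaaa
Col4a2 (chr8:11312555-11312854, plus strand): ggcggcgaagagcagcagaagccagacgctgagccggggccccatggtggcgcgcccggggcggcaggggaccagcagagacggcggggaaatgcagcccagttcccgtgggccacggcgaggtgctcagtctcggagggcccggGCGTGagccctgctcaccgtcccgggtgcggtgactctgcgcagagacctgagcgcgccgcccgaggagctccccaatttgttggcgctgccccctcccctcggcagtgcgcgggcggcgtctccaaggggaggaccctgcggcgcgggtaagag
Col19a1 (chr1:24587388-24587687, minus strand): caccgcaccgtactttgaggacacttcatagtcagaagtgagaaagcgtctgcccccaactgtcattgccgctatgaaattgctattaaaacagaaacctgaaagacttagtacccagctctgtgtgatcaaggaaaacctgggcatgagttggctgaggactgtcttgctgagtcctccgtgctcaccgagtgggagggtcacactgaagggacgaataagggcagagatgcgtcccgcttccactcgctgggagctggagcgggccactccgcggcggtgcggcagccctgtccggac
Adamts1 (chr16:85803064-85803363, minus strand): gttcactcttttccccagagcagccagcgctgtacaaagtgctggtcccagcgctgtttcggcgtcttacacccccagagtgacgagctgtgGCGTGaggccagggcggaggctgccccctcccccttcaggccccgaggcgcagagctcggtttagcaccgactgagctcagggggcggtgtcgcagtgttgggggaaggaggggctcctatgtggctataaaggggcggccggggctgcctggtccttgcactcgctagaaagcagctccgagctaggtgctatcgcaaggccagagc
Adamts9 (chr6:92943485-92943784, minus strand): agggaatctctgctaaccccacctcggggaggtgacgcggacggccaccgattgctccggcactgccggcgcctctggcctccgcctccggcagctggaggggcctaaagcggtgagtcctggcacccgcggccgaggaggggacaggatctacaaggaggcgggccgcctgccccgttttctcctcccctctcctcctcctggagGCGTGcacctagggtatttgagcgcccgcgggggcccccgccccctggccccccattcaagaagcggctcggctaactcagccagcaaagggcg
Col4a1 and Col4a2 lie head to head, with start sites 21 bases apart and 78 bases shared by the windows shown, which is why both are printed. Each window shown held 1 GCGTG, except that of Col19a1, which held neither motif. Over the 68 promoters of the member genes, 36.8% held ACGTG or GCGTG, over all 32851 RefSeq promoters 43.8% did, and of the 13 promoters of member genes that changed at any time point 6 did (46.2%). Of the changed genes whose promoters are not shown, Col18a1, Col8a1, Col9a1 and Lama5 held neither motif there. Mmp14 held 1 ACGTG, and Adamts3 held 1 ACGTG and 1 GCGTG, and both of these genes were lower in hypoxic retinas. Adamts5, also lower, had no promoter in the RefSeq set. TGACTCA, the AP-1 motif, was found in 11.8% of the member promoters and in 5.2% of all promoters, but in 0 of those 13 promoters.

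Which of these families the retina expressed enough to measure differed widely. Of the 171 probe sets, 59 from 34 genes reached the signal threshold at 1 or more time points. These were 37 probe sets of 21 collagen genes, 5 of 4 laminin genes, 9 of Timp2 and Timp3, 3 of 3 Mmp genes and 5 of 4 Adamts genes. All 3 Mmp genes, Mmp14, Mmp17 and Mmp24, encode membrane-type enzymes. No probe set of the gelatinases Mmp2 and Mmp9 passed, with mean log2 signals of 5.14 and 6.34 for Mmp2 and of 6.04 and 6.55 for Mmp9. None of the 6 collagenase and stromelysin genes (Mmp1a, Mmp1b, Mmp3, Mmp8, Mmp10 and Mmp13) passed. Neither did the membrane-type Mmp16 or the 6 other Mmp genes on the array (Mmp7, Mmp11, Mmp12, Mmp19, Mmp20 and Mmp23). Timp1 with a mean of 5.07 and Timp4 with means of 3.67 and 4.09 did not pass. Among basement membrane genes, Lama1 (6.09) and Lamb2 (5.96) also stayed below. For these genes a change was not measurable with the threshold, and a probe set below it does not show that the transcript is absent.

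**Figure D1:**
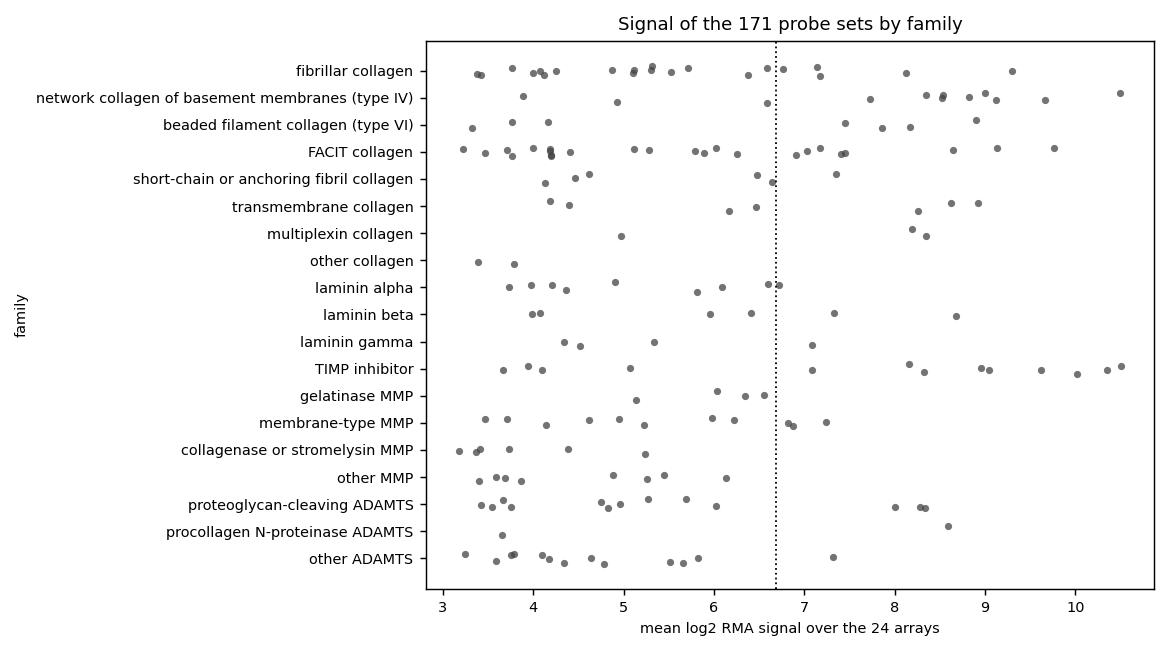
Mean log2 RMA signal over the 24 arrays (horizontal axis) of each of the 171 probe sets, grouped by family (vertical axis); each point is 1 probe set, the vertical scatter within a family is arbitrary, and the dotted line is the threshold of 6.69. All points of the gelatinases, of the collagenases and stromelysins and of the other Mmps lie left of the line, and most collagen IV points lie right of it.

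Immediately after hypoxia, changed members were mostly higher. Of 56 member probe sets tested at 0 h, 19 changed (33.9%, against 32.4% of all 18799 tested), a share near the background. The directions were 16 higher in hypoxic retinas, from 8 genes, and 3 lower, from 2 genes, which is 28.6% and 5.36% of the members, against 15.2% and 17.2% of all probe sets. The higher ones were 10 probe sets of the collagens Col4a1, Col4a2, Col8a1, Col9a1 and Col19a1, all 4 of Timp3, 1 of Lama5 and 1 of Adamts1, and the lower ones were 2 of Adamts5 and 1 of Mmp14. Probe sets of the same gene share their target and are not independent. Of the 16 higher ones, 5 had a normoxic mean below the threshold and were tested only through their hypoxic mean, namely 2 of Col8a1 and 1 each of Col19a1, Lama5 and Timp3. For these the entry rule itself required a higher hypoxic mean. With entry by the mean over all 24 arrays instead, chosen after seeing the data, 13 of 53 members were higher (24.5%, against 13.9% of all probe sets) and 3 lower (5.66%, against 17.4%), with the Col8a1 probe sets and 1 of Col19a1 no longer tested. The median change was 0.20 over the members and -0.01 over all probe sets, and 44 of the 56 members had a positive value. With the RPE marker level of each array as a covariate, chosen after seeing the data, 5 members stayed higher and 1 lower at 0 h. The share of all probe sets under that covariate is not given here. The RPE levels of the treatments do not overlap at 0 h, and the SE of Col4a1 in 1452035_at was 0.54 with it and 0.24 with the lens level. The smaller count therefore cannot be read as particular to the members.
At 2 h, 8 of 55 member probe sets changed (14.5%, against 16.6% of all 18587 tested). Higher were 6 from 3 genes (10.9%, against 9.19%) and lower 2 from 2 genes (3.64%, against 7.38%). The median over the members was -0.07 and that over all probe sets 0.01. At 4 h, where 1.43% of all tested probe sets changed (0.876% higher, 0.551% lower), 0 of 55 members did, and the smallest adjusted p was 0.0884, of a Col23a1 probe set. At 16 h, 0 of 55 members and 0% of all tested probe sets changed (limma). At an unadjusted p under 0.05 (limma), 24 of 56, 14 of 55, 11 of 55 and 14 of 55 members passed at 0, 2, 4 and 16 h. Over all tested probe sets, 7917 of 18799, 5614 of 18587, 2877 of 18498 and 1172 of 18423 did. All 3 hypoxic pools lay above all 3 normoxic pools in 19 members at 0 h (21.5% of all probe sets did), 7 at 2 h (19.8%) and 7 at 4 h (17.1%), and below them in 3 members at 0 h (23.9%), 7 at 2 h (14.9%) and 11 at 4 h (10.2%). Tested as a difference of effects, 2 h and 0 h stood apart in 5 of 58 members (8.62%, against 8.21% of all probe sets), and 4 h and 0 h in 12 of 58 (20.7%, against 16.9%).

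**Figure D2:**
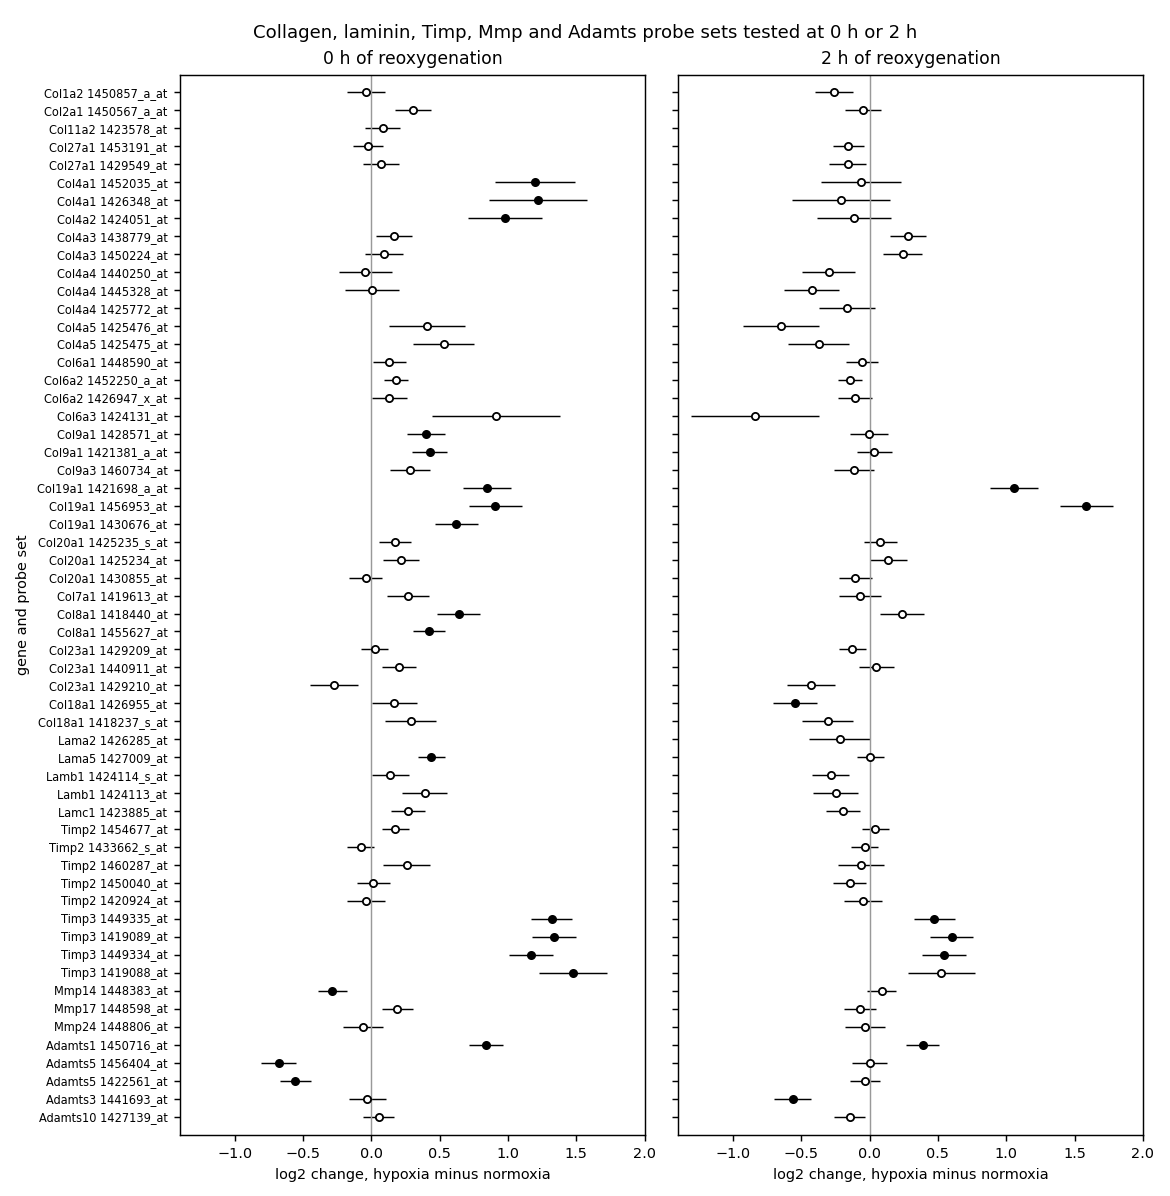
Log2 change, hypoxia minus normoxia (horizontal axes), of each member probe set tested at 0 h (left) or 2 h (right), by gene and probe set (vertical axis); bars are ± 1 SE and filled points have an adjusted p under 0.05. Among the filled points, Timp3, Col4a1, Col4a2 and Col19a1 hold the largest rises at 0 h, and at 2 h the 2 Col19a1 probe sets stand farthest to the right.

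Timp3 gave the clearest response of the whole group. In probe set 1449335_at the hypoxic pools at 0 h had log2 signals of 10.26, 10.29 and 10.30, against 8.88, 9.12 and 8.89 in the normoxic pools. The other 3 probe sets showed the same separation, with all 3 hypoxic pools above all 3 normoxic pools. In 1419088_at, the probe set with the largest change, the hypoxic pools had 7.92, 7.93 and 8.10 and the normoxic pools 6.18, 6.69 and 6.66. Its normoxic mean lay below the threshold, so its change is no exact ratio. Over the 4 probe sets the changes were 1.17 to 1.47 (SE 0.15 to 0.25), with adjusted p between 1.02e-06 and 0.000104, and in the 3 brighter ones they were 2.24-fold to 2.53-fold.
At 2 h the rise was smaller. In 1449335_at the hypoxic pools had 10.15, 10.36 and 10.29 and the normoxic pools 10.03, 10.08 and 9.27, so the groups did not overlap but 1 normoxic pool lay far below the other 2. Of the 4 probe sets, 3 were changed, by 0.47, 0.55 and 0.60 (SE 0.15 to 0.16, adjusted p 0.0126 to 0.0341), and 1419088_at was not (0.53, SE 0.25, adjusted p = 0.156). Without that pool, normoxic 2 h replicate 3, the 3 changes were 0.21, 0.37 and 0.40 and none passed, with adjusted p of 0.247, 0.149 and 0.0964. Leaving out hypoxic 2 h replicate 2 also ended all 3 calls, replicate 3 those of 1449335_at and 1449334_at, and replicate 1 that of 1449335_at.
At 4 h the changes of the 4 probe sets lay between -0.16 and 0.01, and at 16 h between -0.33 and 0.05. The fall of the effect was itself tested: it was smaller at 2 h than at 0 h in 2 of 4 probe sets and smaller at 4 h than at 0 h in all 4, by 1.16 to 1.62 on the log2 scale (adjusted p 7.83e-05 to 0.00279). Normoxic signals moved as well, and an F test over the 4 normoxic groups called 8 of 57 members (14%, against 3.54% of all probe sets). Over 0, 2, 4 and 16 h the normoxic means of 1449335_at were 8.96, 9.79, 9.62 and 9.44 (F test, adjusted p = 0.0171), so the normoxic 0 h pools were the lowest.
The RPE is known to express Timp3, and its markers differed between the same pools. Of 11 RPE markers tested at 0 h, 7 were higher in hypoxic retinas and 1 lower, beside 15.2% higher and 17.2% lower of all tested probe sets. The median change of the 11 was 1.82, and the marker that was lower is not named here. Ttr (3.75), Rgr (3.57) and Rpe65 (3.48) moved most, whereas Otx2 (0.18, adjusted p = 0.0529) and Rlbp1 (0.00, adjusted p = 0.981), which other retinal cells also express, did not pass. With the RPE marker level of each array as a covariate, the Timp3 changes at 0 h were 1.03, 1.02, 0.80 and 0.72 with adjusted p of 0.0229, 0.0313, 0.0908 and 0.341, and none of the 3 changes at 2 h passed. Since the hypoxic and normoxic RPE levels at 0 h do not overlap, the slope of that covariate rests on the spread among pools of a group, where the Timp3 probe sets had correlations with the RPE level of 0.29 to 0.44 (Pearson) and 0.38 to 0.51 (Spearman), none past an adjusted p of 0.05 (permutation test within groups, 24 arrays, 118 relations). With the lens level as the covariate the Timp3 changes at 0 h were 1.34, 1.34, 1.14 and 1.38.
Timp2, the other Timp above threshold, did not follow. In its brightest probe set, 1454677_at, the hypoxic pools at 0 h had 10.57, 10.48 and 10.48 and the normoxic pools 10.41, 10.44 and 10.16, a change of 0.17 (SE 0.10, adjusted p = 0.194). Its 5 tested probe sets had changes between -0.08 and 0.26 at 0 h, and none passed at any time point. Timp1, a common injury response gene, had 5.06, 5.51 and 4.97 in hypoxic and 4.85, 4.59 and 4.73 in normoxic pools at 0 h, all below the threshold and not tested.

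Of the collagen IV genes, Col4a1 and Col4a2 were higher at 0 h. Col4a1 and Col4a2 encode the chains of the most widespread collagen IV network. In Col4a1 probe set 1452035_at the hypoxic pools at 0 h had 10.65, 10.77 and 10.40, against 9.91, 8.53 and 9.79 in the normoxic pools. In Col4a2 the hypoxic pools had 9.22, 9.35 and 9.12 and the normoxic pools 8.56, 7.50 and 8.69. The groups did not overlap, and in both genes the lowest pool was normoxic 0 h replicate 2, the pool with the lowest lens marker level. Col4a1 changed by 1.20 (SE 0.29, adjusted p = 0.00319) in this probe set and by 1.22 (SE 0.36, adjusted p = 0.0123) in 1426348_at, and Col4a2 by 0.98 (SE 0.27, adjusted p = 0.00783). Without that pool, the 3 changes were 0.76, 0.60 and 0.60, and only the first passed (adjusted p = 0.0294, 0.110 and 0.0720). With the lens marker level of each array as a covariate, chosen after seeing the data, they were 0.69, 0.51 and 0.52, with adjusted p of 0.0348, 0.135 and 0.0899. With the RPE level as a covariate they were 1.56, 1.40 and 1.22, and none passed (adjusted p = 0.0843, 0.230 and 0.155). The normoxic pools at 2 h had 11.04, 10.94 and 10.80 for Col4a1 in 1452035_at and 9.58, 9.50 and 9.47 for Col4a2. All of these lay above the hypoxic 0 h pools, so the 0 h changes are relative to a low normoxic 0 h group. Fibroblasts are known to make collagens, and of 7 fibroblast markers tested at 0 h 1 was higher (Pdgfra, 0.63, adjusted p = 0.0262) and 0 lower. Of all tested probe sets 15.2% were higher and 17.2% lower, so 1 of 7 is near the background. The median change of the 7 markers was 0.60. The defining markers Dcn, Lum and Dpt lay below the threshold, with mean log2 signals of 5.95, 3.73 and 3.87. The part of the fibroblast level in the collagen results was not tested.
The relation of member signals to the lens level across the 24 arrays was measured after the group means were removed. Col6a3, a chain of beaded filament collagen, had the highest correlation (Pearson r = 0.90, permutation p = 0.00035, adjusted p = 0.0383; Spearman rho = 0.83, permutation p = 0.00068, adjusted p = 0.0607), and without the 2 arrays farthest from the median r was 0.79. The next positive values were those of Col4a1 in 1426348_at (r = 0.81, rho = 0.78) and Lama2 (r = 0.75, rho = 0.73). Col4a1 in 1452035_at (r = 0.73, rho = 0.58) and Col4a2 (r = 0.70, rho = 0.69) followed, all with adjusted p above 0.05. By Pearson's r, adjusted over all 118 relations, Col6a3 passed, as did Col20a1 in the other direction (r = -0.76, adjusted p = 0.0383), and by Spearman's rho Col6a3 did not. Col6a3, Lama2, Col4a5 and Col20a1 were named after their values had been seen. In Col6a3 the hypoxic pools at 0 h had 8.45, 8.13 and 7.28 and the normoxic pools 7.78, 5.43 and 7.93, which overlap, and its change of 0.91 (SE 0.47) did not pass (adjusted p = 0.145).
At 16 h, Col4a1 and Col4a2 lay lower after hypoxia without passing the test. In 1452035_at the hypoxic pools had 9.77, 10.48 and 9.82 and the normoxic pools 10.57, 11.04 and 11.11, a change of -0.88 (SE 0.29, adjusted p = 0.771). Of 55 members tested at 16 h, 11 from 8 genes had all hypoxic pools below all normoxic pools, among them Col4a1, Col4a2, Col4a5 and Col18a1, and 0 had them above. Over all tested probe sets, 4.18% were below and 6.87% above without overlap. The lens marker level at 16 h was 10.16 to 11.65 in hypoxic and 11.17 to 11.89 in normoxic pools, with a median change of the markers of -1.08. The fibroblast marker level at 16 h was 6.22 to 6.51 in hypoxic and 6.50 to 6.81 in normoxic pools, with a median change of -0.61. With that lens level as a covariate, 0 members passed at 16 h.
Col4a3 and Col4a4, chains of the collagen IV network best known from the kidney glomerulus and also present in the lens capsule, had changes of -0.04 to 0.17 at 0 h and none passed. Col4a5, their partner, had values of 0.41 and 0.53 at 0 h that did not pass (adjusted p = 0.285 and 0.0736).

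**Figure D3:**
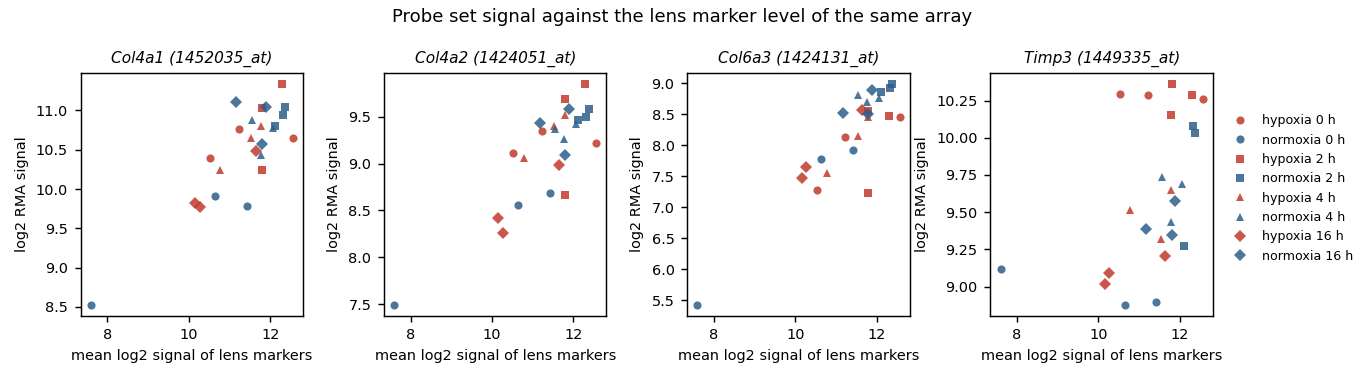
Log2 signal of Col4a1, Col4a2, Col6a3 and Timp3 probe sets (vertical axes) against the mean log2 signal of the lens markers (horizontal axes) on each of the 24 arrays, hypoxia in red and normoxia in blue, with a symbol for each time point. The normoxic 0 h replicate 2, at a lens level of 7.60, is lowest for Col4a1, Col4a2 and Col6a3, whereas for Timp3 all hypoxic 0 h pools stand above all normoxic 0 h pools.

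Col19a1, a FACIT collagen found near basement membrane zones and made by some neurons, was higher at both 0 h and 2 h. In 1456953_at the hypoxic pools at 0 h had 8.19, 8.78 and 8.47, against 7.69, 7.53 and 7.50 in the normoxic pools. At 2 h the hypoxic pools had 9.00, 8.09 and 8.51 and the normoxic pools 6.93, 6.72 and 7.19. The 2 groups stood farther apart at 2 h than at 0 h, though the hypoxic pools also varied more. The change was 0.91 (SE 0.19, adjusted p = 0.0011) at 0 h and 1.59 (SE 0.19, adjusted p = 2.26e-05) at 2 h, the largest of any member at 2 h, and the difference of 2 h and 0 h did not pass the test for this gene.
In 1421698_a_at the changes were 0.84 (adjusted p = 0.000827) at 0 h and 1.06 (adjusted p = 0.000437) at 2 h. A dimmer probe set, 1430676_at, changed by 0.62 (adjusted p = 0.00368) at 0 h, where its normoxic mean of 6.19 lay below the threshold, and it was not tested later. With the RPE level as a covariate its value was 0.77 and did not pass (adjusted p = 0.113). At 4 h the hypoxic pools of 1456953_at had 7.12, 7.32 and 7.07 and the normoxic pools 6.50, 6.65 and 6.55. These groups did not overlap, yet the change of 0.60 (SE 0.19) did not pass (adjusted p = 0.126), and at 16 h it was 0.15 (adjusted p = 0.948). Neither covariate removed the 0 h and 2 h calls of the 2 brighter probe sets: with the RPE level the changes of 1421698_a_at and 1456953_at were 1.48 and 1.48 at 0 h and 1.29 and 1.79 at 2 h. In normoxic retinas too the signal varied with the time point, and 1421698_a_at averaged 9.53, 8.74, 8.26 and 8.87 over 0, 2, 4 and 16 h (F test, adjusted p = 0.00324).
Col9a1, a FACIT collagen of the vitreous and cartilage, had 8.98, 9.18 and 9.00 in hypoxic pools and 8.31, 8.95 and 8.62 in normoxic pools at 0 h in 1421381_a_at. The groups lay close, and the changes of its 2 probe sets, 0.43 and 0.40 (SE 0.13 and 0.14), passed with adjusted p of 0.0141 and 0.0322. The first was lost without hypoxic replicate 2 or normoxic replicate 1, and the second without hypoxic replicate 2 or 3 or normoxic replicate 1 or 3, with values of 0.27 to 0.59 and 0.23 to 0.58. With the RPE level as a covariate the values were 0.50 and 0.63, and neither passed (adjusted p = 0.229 and 0.144). Its partner Col9a3 had a change of 0.28 (adjusted p = 0.151), and Col20a1 one of -0.04 to 0.22 over 3 probe sets.
Col8a1, a short-chain collagen of Descemet's membrane and vessel walls, had 7.22, 7.08 and 7.12 in hypoxic pools and 6.81, 6.48 and 6.21 in normoxic pools at 0 h. The normoxic means of both probe sets lay below the threshold, so that they were tested only through their hypoxic means. Its 2 probe sets changed by 0.64 (SE 0.16, adjusted p = 0.00375) and 0.42 (SE 0.12, adjusted p = 0.0091), and with the RPE level as a covariate they were 0.14 and 0.04 (adjusted p = 0.818 and 0.934). The second was lost without hypoxic replicate 1 and with the lens level as a covariate (0.33, adjusted p = 0.0625). Within groups, the Pearson correlations of these probe sets with the RPE level were 0.47 and 0.51. Neither passed (permutation test, adjusted p = 0.347 and 0.285), and without the 2 arrays farthest from the median they were 0.31 and 0.50.
Col18a1, a basement membrane collagen whose C-terminal fragment is endostatin, was lower at 2 h. In 1426955_at the hypoxic pools had 7.72, 8.29 and 8.28 and the normoxic pools 8.60, 8.83 and 8.49. The groups did not overlap, and the change of -0.55 (SE 0.16, adjusted p = 0.0242) was lost without hypoxic replicate 1 or without normoxic replicate 2. The second probe set, 1418237_s_at, had a value of -0.31 at 2 h that did not pass (adjusted p = 0.282). At 4 h the hypoxic pools again lay below, with 8.08, 8.34 and 7.98 against 8.61, 8.62 and 8.56 in normoxic pools, without passing (change -0.47, adjusted p = 0.153).
No fibril-forming collagen passed with the threshold. Col2a1, the fibrillar collagen of the vitreous, had 9.52, 9.49 and 9.64 in hypoxic pools and 9.01, 9.61 and 9.12 in normoxic pools at 0 h, a change of 0.30 (SE 0.13, adjusted p = 0.078). Col1a2, Col11a2 and Col27a1 had values between -0.04 and 0.08 at 0 h. With the lens level as a covariate Col2a1 was 0.48 and passed (adjusted p = 0.00599). Col6a1 and Col6a2, the other chains of beaded filaments, had 0.13 to 0.18, and the 3 probe sets of Col23a1, a transmembrane collagen, went in both directions (-0.28 to 0.20), with no call. Anchoring fibril collagen Col7a1 had a change of 0.27 (adjusted p = 0.194).

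**Figure D4:**
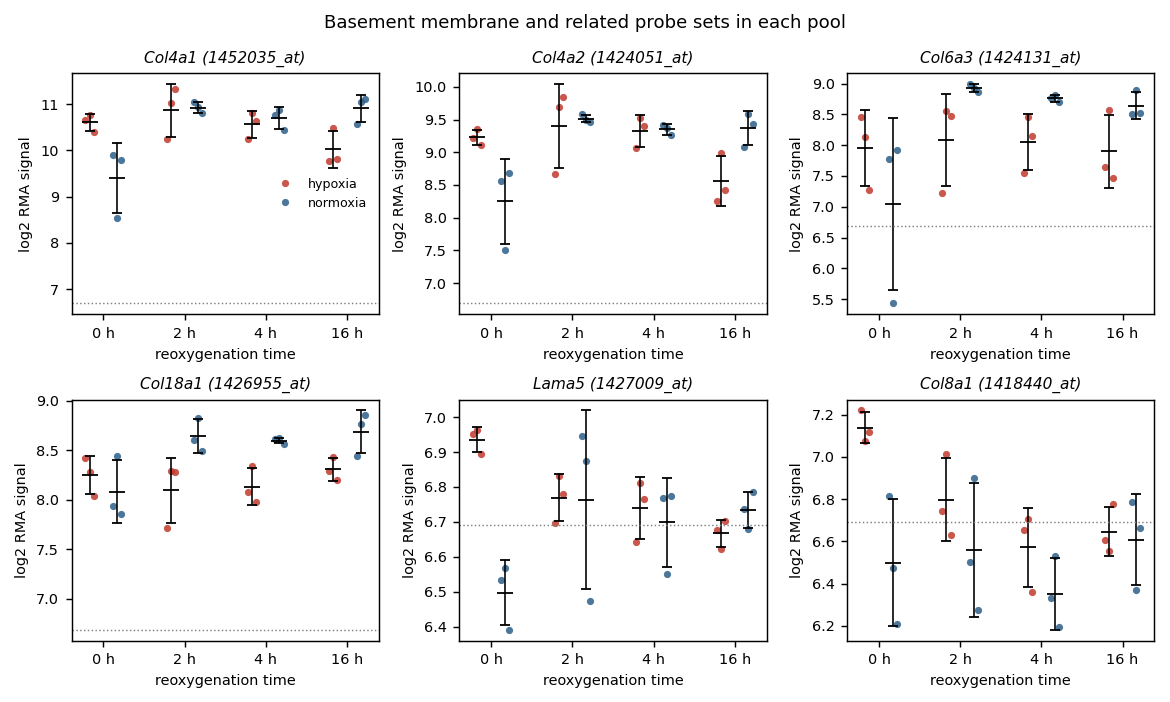
Log2 RMA signal (vertical axes) in each pool at 0, 2, 4 and 16 h of reoxygenation (horizontal axes) for Col4a1, Col4a2, Col6a3, Col18a1, Lama5 and Col8a1, hypoxia in red left of normoxia in blue; bars show the mean ± SD of 3 pools, the dotted line is the threshold of 6.69 and the vertical axes differ. The normoxic 0 h groups of Col4a1, Col4a2 and Col6a3 hold 1 pool far below the other 2, and the groups of Lama5 separate at 0 h only.

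Among the 4 laminin genes above threshold, Lama5 was the only call. Lama5, a chain of the laminins of vessel and epithelial basement membranes, had 6.95, 6.96 and 6.89 in hypoxic pools and 6.53, 6.57 and 6.39 in normoxic pools at 0 h. The groups were well separated within a narrow range that straddles the threshold, and it was tested at 0 h through its hypoxic mean. The change was 0.44 (SE 0.10, adjusted p = 0.00175). It held with the lens level as a covariate (0.45, adjusted p = 0.00518) and without any single array, and with the RPE level the value was 0.48 (adjusted p = 0.127). With a stricter threshold it was no longer tested. At 2 h it was 0.01 (adjusted p = 0.977). A second probe set of Lama5, 1427010_s_at, lay below the threshold and had a change of 0.32 at 0 h. Lamb1 (0.14 and 0.39) and Lamc1 (0.27), whose chains join alpha chains in most laminins, had positive values at 0 h that did not pass (adjusted p = 0.455, 0.0746 and 0.0989). Lama2, a laminin chain of muscle and nerve, had 6.86, 6.28 and 6.47 in hypoxic and 6.32, 5.44 and 6.36 in normoxic pools at 0 h, below the threshold, and its later values did not pass.

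Among the Mmps above threshold, Mmp14 was the only call. Mmp14, the membrane-type enzyme that activates pro-Mmp2, had 6.89, 6.90 and 7.13 in hypoxic pools and 7.14, 7.45 and 7.19 in normoxic pools at 0 h. The groups nearly touched, and the change of -0.29 (SE 0.11, adjusted p = 0.0418) was lost without hypoxic replicate 1 or 2 or normoxic replicate 2 or 3, with values between -0.37 and -0.19 over single arrays left out, and with the lens level as a covariate (-0.19, adjusted p = 0.223). Mmp17 (0.19, adjusted p = 0.225) and Mmp24 (-0.06, adjusted p = 0.781) did not pass. The brighter probe sets of the gelatinases, below the threshold, had changes of -0.01 for Mmp2 and 0.11 for Mmp9 at 0 h.

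The Adamts proteases moved in opposite directions. Adamts1, a secreted protease that cuts the proteoglycans aggrecan and versican, had 8.75, 8.54 and 8.91 in hypoxic pools and 8.09, 7.99 and 7.59 in normoxic pools at 0 h. All hypoxic pools lay above all normoxic ones. The change was 0.84 (SE 0.12, adjusted p = 2.28e-05), or 1.79-fold, and at 0 h it passed with either covariate. At 2 h the hypoxic pools had 8.08, 8.17 and 8.04 and the normoxic pools 7.83, 7.65 and 7.65, a change of 0.39 (SE 0.12, adjusted p = 0.0349) that was lost without any single array of that hour but normoxic replicate 1, with values of 0.35 to 0.45, and with the RPE level as a covariate (0.41, adjusted p = 0.0722). At 4 h the change was 0.30 (adjusted p = 0.234) and at 16 h 0.14 (adjusted p = 0.902).
Adamts5, the main aggrecanase of mouse cartilage, was lower at 0 h. In 1456404_at the hypoxic pools had 7.22, 7.83 and 7.47, against 8.15, 8.19 and 8.21 in the normoxic pools. In 1422561_at the hypoxic pools had 7.65, 7.64 and 7.68 and the normoxic pools 8.16, 8.22 and 8.25. Normoxic pools were tightly grouped and all hypoxic pools lay below them. The changes were -0.68 (SE 0.13, adjusted p = 0.000302) and -0.56 (SE 0.11, adjusted p = 0.000544), that is 0.625 and 0.68 of the normoxic signal. With the RPE level as a covariate they were -0.85 (adjusted p = 0.0276) and -0.54 (adjusted p = 0.121). At 2 h the values were -0.0001 and -0.03, and this difference of effects between the hours passed its test in both probe sets. The 2 dimmer probe sets of Adamts5 lay below the threshold.
Adamts3, a procollagen N-proteinase that also acts on the lymphatic growth factor Vegfc, was lower at 2 h only. The hypoxic pools at 2 h had 8.19, 7.95 and 8.34 and the normoxic pools 8.60, 8.69 and 8.89, with no overlap. The change was -0.56 (SE 0.13, adjusted p = 0.00667), and with the RPE level as a covariate -0.47 (adjusted p = 0.0511). At 4 h the order was turned, with 8.82, 8.72 and 8.91 in hypoxic and 8.24, 8.51 and 8.34 in normoxic pools, a change of 0.46 (SE 0.13) that did not pass (adjusted p = 0.0913). The difference between the effects at 4 h and 2 h did pass, at 1.02 (SE 0.19, adjusted p = 0.019), the only member of 57 tested for this difference (1.75%, against 0.487% of all probe sets).
Adamts9, a proteoglycan-cleaving relative of Adamts1, lay below the threshold and was not among the probe sets tested. In 1437785_at the hypoxic pools at 0 h had 6.14, 6.32 and 6.11 and the normoxic pools 5.47, 5.37 and 5.14, and the groups were far apart for so dim a probe set. Without the threshold, in the fit of all 45037 probe sets, the change was 0.86 with an adjusted p of 7.41e-06, and 0.22 at 2 h (adjusted p = 0.284). At 0 h the dimmer probe set 1430352_at had 0.35 (adjusted p = 0.00417) and 1431399_at had -0.04 (adjusted p = 0.917). Adamts10, a protease of microfibrils, had a change of 0.05 at 0 h in its tested probe set, 1427139_at (adjusted p = 0.764). Its dim probe set 1441309_at passed narrowly at 0 h without the threshold (0.48, adjusted p = 0.0485).
Without the threshold, 19 of 171 member probe sets were higher at 0 h (11.1%, against 7.25% of all) and 4 lower (2.34%, against 7.96%), and at 2 h 5 were higher (2.92%, against 3.31%) and 4 lower (2.34%, against 2.67%). At 4 h, 0 were higher (0.289% of all) and 1 lower (0.198% of all). Beside Adamts9 the dim probe sets that entered include Col8a2, the partner chain of Col8a1, with 4.76, 5.47 and 5.08 in hypoxic and 4.40, 4.34 and 3.88 in normoxic pools at 0 h (0.90, adjusted p = 0.000506). At 2 h the dim probe sets include 1418599_at of Col11a1, a minor fibrillar chain, with 4.44, 4.47 and 4.66 in hypoxic and 5.32, 5.36 and 5.67 in normoxic pools (-0.92, adjusted p = 0.000331). Another Col11a1 probe set, 1449154_at, did not pass (-0.54, adjusted p = 0.0984). Fibrillar Col1a2 in 1423110_at was also lower at 2 h, with 4.19, 4.68 and 4.90 in hypoxic and 5.21, 5.32 and 5.30 in normoxic pools (-0.69, adjusted p = 0.00582). The brighter Col1a2 probe set 1450857_a_at (-0.26, adjusted p = 0.34) and 1446326_at (0.13, adjusted p = 0.442) did not pass in that fit. Col11a1 in 1418599_at was also lower at 4 h in that fit (-0.71, adjusted p = 0.0154), and 1449154_at did not pass (-0.47, adjusted p = 0.345). Col8a2, Mmp16, Col11a1, the Col1a2 probe sets, Adamts10 1441309_at and the dimmer Adamts9 probe sets were named after their values had been seen. Signals below the threshold carry no exact ratio.

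**Figure D5:**
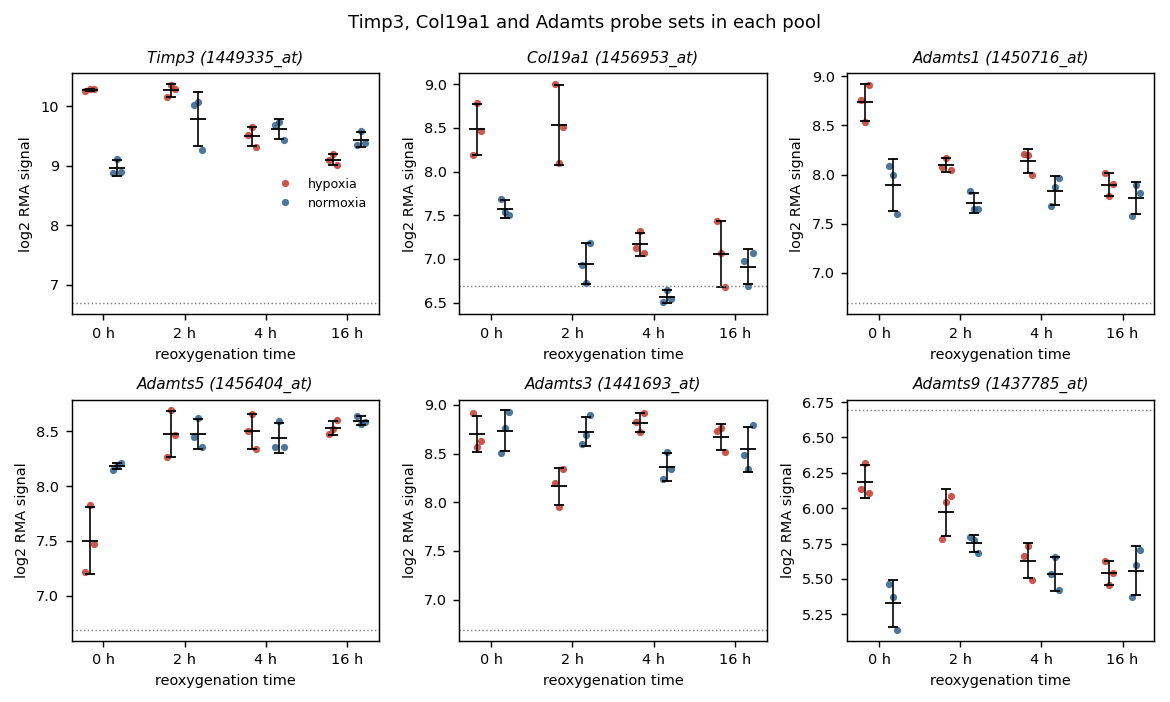
Log2 RMA signal (vertical axes) in each pool at 0, 2, 4 and 16 h of reoxygenation (horizontal axes) for Timp3, Col19a1, Adamts1, Adamts5, Adamts3 and Adamts9, hypoxia in red left of normoxia in blue; bars show the mean ± SD of 3 pools, the dotted line is the threshold of 6.69 and the vertical axes differ. Timp3 is high in the hypoxic 0 h and 2 h pools, Adamts1 and Adamts9 average highest in the hypoxic 0 h pools, Adamts5 is lowest there, and Adamts3 is lowest in the hypoxic 2 h pools.

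Other matrix genes were followed in separate lists. Of 16 tested genes of collagen processing and crosslinking, 8 were higher and 1 lower in hypoxic retinas at 0 h, where 15.2% of all tested probe sets were higher and 17.2% lower. P4ha2 (1.22, SE 0.11, adjusted p = 4.86e-08) and P4ha1 (0.46, SE 0.10), subunits of the prolyl hydroxylase that stabilises the triple helix, Plod2 (1.02, SE 0.15) and Plod1 (0.66, SE 0.10), lysyl hydroxylases, and Loxl1 (0.63, SE 0.19), a crosslinking oxidase, were higher, and Colgalt1, a collagen galactosyltransferase, was lower (-0.73, SE 0.10, adjusted p = 5.89e-06). At 2 h, where 9.19% of all tested probe sets were higher and 7.38% lower, 1 of 17 was higher and 4 were lower, and P4ha1 was then among the lower ones (-0.50, SE 0.10, adjusted p = 0.00255).
Of 16 other matrix proteases and inhibitors, 6 were higher and 1 lower at 0 h, beside the same 15.2% and 17.2% of all tested probe sets. Htra1, a secreted serine protease (0.88, SE 0.09, adjusted p = 1.81e-07), A2m, the broad protease inhibitor alpha-2-macroglobulin (0.995, SE 0.17), and Plat, tissue plasminogen activator (0.58, SE 0.10), rose, while Adam10, a membrane sheddase, fell (-0.38, SE 0.11). Of 11 partners of laminin and collagen IV in basement membranes, 3 were higher, among them Sparc (0.56, SE 0.14), which binds collagen IV, and 0 lower at 0 h, whereas at 2 h 0 were higher and Egflam, the dystroglycan ligand pikachurin (-0.42, SE 0.08, adjusted p = 0.00145), and Pxdn, the enzyme that crosslinks collagen IV (-0.65, SE 0.18), were lower, beside 9.19% higher and 7.38% lower of all.
Among integrins, the matrix receptors, 3 of 8 were higher (Itgav, Itgb5 and Itgb8) and Itga4 lower at 0 h. Proteoglycans had 1 of 12 higher and Impg1, a proteoglycan of the matrix between photoreceptors and RPE, lower at both 0 h (-0.58, SE 0.11) and 2 h (-0.78, SE 0.11). Of 11 tested glycoproteins and matricellular proteins, 3 were higher, with Ccn2 (connective tissue growth factor) at 0.86 (SE 0.16, adjusted p = 0.000356), and Vtn (vitronectin) was lower (-0.32, SE 0.07). TGF-beta signalling genes had 2 of 13 higher, Tgfbr3 and Inhba, which is near the background of 15.2% higher, and 0 lower. For all of these lists the background at 0 h was 15.2% higher and 17.2% lower. Medians over these lists at 0 h lay between 0.02 and 0.27, beside -0.01 over all probe sets, and no gene of them passed at 4 h or 16 h.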

How the data were processed

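Retinas were measured on Affymetrix mouse whole-genome arrays, 24 in 8 groups of 3 pools. The authors deposited log2 expression values computed with RMA, whose version is not given in the sources used here, and these were used as deposited (0 columns of samples outside the series). RMA sets all arrays to one distribution, so a change is relative to the bulk of the transcripts. After 64 control probe sets were left out, 45037 remained, of which 34945 had 1 gene symbol, 932 several and 9160 none. limma 3.58.1 in R 4.3.3 fitted 1 mean per group with moderated variance, on 16 residual degrees of freedom. Benjamini-Hochberg adjustment ran over all probe sets tested. Differences between the effects of 2 time points and an F test over the 4 normoxic groups came from the same fit. Correlations used 100000 permutations within groups (Python 3.11.15, NumPy 2.4.6). The highest correlation between arrays was 0.997. The pipeline was tested on simulated data.

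The replicates are separate pools of mice, and their number limits the precision. The rule for named probe sets took up to 8 rises and 8 falls called at 0 h and 2 h, 1 per gene, every call at 4 h and 16 h, a fixed set of Timp, Mmp, Adamts, collagen and laminin genes, and the top member of each family. Other members were named after their values had been seen, to complete a family. The members, gene lists and tests were chosen with earlier results of these data known. Alternatives were another normalization, filter, variance model, test, set of arrays, array weights, a replicate block, leaving out each array, and, chosen after seeing the data, marker levels as covariates and entry by the mean over all arrays. For 12 listed genes of these families no probe set was analysed here.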

Additional observations from a re-analysis of the deposited data

Results flagged for a closer look

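The effect of hypoxia (hypoxia minus normoxia) differed between time points in 18 comparisons of named probe sets (limma, 1 contrast of the 2 effects, adjusted over all probe sets). At 2 h minus 0 h, the effect on Timp3 differed by -0.84 (1449335_at, adjusted p = 0.0153) and -0.74 (1419089_at, adjusted p = 0.0445), and that on Adamts5 by 0.68 (adjusted p = 0.0203) and 0.52 (adjusted p = 0.0397), and that on Col8a1 in 1455627_at by -0.60 (adjusted p = 0.0281). Of 58 members tested, 5 differed between 2 h and 0 h (8.62%, against 8.21% of all probe sets). Between 4 h and 2 h, Adamts3 differed by 1.02 (adjusted p = 0.019), a call lost without hypoxic 2 h replicate 1, hypoxic 4 h replicate 3 or normoxic 4 h replicate 1 or 3.

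Between 4 h and 0 h, 12 of 58 members differed (20.7%, against 16.9% of all probe sets). The 4 Timp3 probe sets differed by -1.44 (adjusted p = 7.83e-05), -1.50 (adjusted p = 9.17e-05), -1.16 (adjusted p = 0.00111) and -1.62 (adjusted p = 0.00279). Adamts1 differed by -0.54 (adjusted p = 0.0369), and Adamts5 by 0.74 (adjusted p = 0.00597) and 0.86 (adjusted p = 0.000626). Among collagens, Col2a1 differed by -0.58 (adjusted p = 0.0322), Col4a1 by -1.33 (adjusted p = 0.0300), Col4a5 by -0.99 (adjusted p = 0.0341), Col9a1 by -0.56 (adjusted p = 0.0374) and Col8a1 in 1455627_at by -0.50 (adjusted p = 0.0421). The Col8a1 probe set again entered only through its hypoxic 0 h mean, so its fall cannot be read apart from the entry rule. The normoxic 0 h replicate 2, with the low lens marker level, enters the Col4a1 and Col4a5 values.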

How the results depend on the processing

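No called change at 0 h or 2 h of a named probe set turned its sign in any of the settings run. The count of members higher at 0 h was 16 and ranged from 14 to 18 with single arrays left out, and was 7 by the methods' t-test with adjustment and 5 with the RPE level as a covariate. With entry by the mean over all 24 arrays it was 13, since both Col8a1 probe sets and 1430676_at of Col19a1 were then not tested. Of those lower, 3 became 2 to 3, 1 by the t-test and 1 with the RPE level. At 2 h, 6 higher became 2 to 6 (2 without hypoxia replicate 2, 3 without hypoxia replicate 3, 2 without normoxia replicate 3), 3 with the 6 arrays of the time point alone, 0 by the t-test and 2 with the RPE level, and 2 lower became 1 to 3 (1 without hypoxia replicate 1 or normoxia replicate 2), 4 without the signal filter, 1 with 6 arrays, 0 by the t-test and 1 with the RPE level. At 4 h, higher calls were 1 with trend and robust variance, 3 with array weights, 1 with 6 arrays, 1 at an adjusted p under 0.1 and 1 with the RPE level, and lower calls 1 without filter, 1 with weights and 1 at 0.1. At 16 h no setting gave a call. The effect differed between 2 h and 0 h in 5 members, in 1 to 7 with arrays left out (lowest without hypoxia 0 h replicate 1 or normoxia 2 h replicate 2), 14 at 0.1, 1 with the lens level, 1 with the RPE level and 8 without normoxic 0 h replicate 2 and normoxic 16 h replicate 3. Between 4 h and 2 h, 1 became 0 to 2, and 0 with the replicate block. Between 4 h and 0 h, 12 became 7 to 15 (7 without hypoxia 4 h replicate 1 or normoxia 4 h replicate 1 or 2), 7 without filter, 20 at 0.1 and 4 with the RPE level. Among normoxic groups, 8 became 4 to 14 (4 without normoxia 0 h replicate 2 or normoxia 4 h replicate 1 or 3, 14 without normoxia 2 h replicate 3), 4 without filter, 15 at 0.1 and 1 without both arrays. All of these are counts of members alone. The share of all probe sets is given here only for the main setting, without the signal filter and with entry by the mean over all arrays. Under the other settings, a move of the members cannot be told apart from a move of all probe sets. The cause of these moves was not tested. Same-numbered samples did not pair (correlations of -0.227 to 0.237, 2 of 12 above 0.1), and the replicate block ended the calls of Mmp14 at 0 h and Adamts1 at 2 h. Timp3 in 1449335_at and 1419089_at and Col19a1 in 1421698_a_at and 1456953_at kept their 0 h calls in all settings and with every array left out.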

Other observations

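Some of these genes also differed among the 4 normoxic groups, in animals that were never hypoxic. Col4a1, the basement membrane collagen chain, averaged 9.41, 10.93, 10.70 and 10.91 over 0, 2, 4 and 16 h in 1452035_at (limma's F test, adjusted p = 0.0131). Col4a2, its partner chain, averaged 8.25, 9.52, 9.35 and 9.37 (adjusted p = 0.0272). In both genes the normoxic 0 h group, which holds the pool with the low lens marker level, was lowest. Col19a1 went the other way and was highest in the normoxic 0 h group. Timp3 and both Col4a5 probe sets were the other members that passed, 8 probe sets from 5 genes in all. Without the normoxic 0 h replicate 2, 4 members passed.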
